A study of Mus musculus with 10 samples.

Results

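The cytochrome P450 genes of families 1 to 4 encode the enzymes that handle most drugs, dietary compounds, bile acids and fatty acid mediators in mouse tissues. Every gene row whose symbol was Cyp, a family number from 1 to 4, a subfamily letter and a number was taken, which gave 75 of the 30295 rows. The genes described were then selected on their level, as the 34 of these that reached a TPM (a transcript level scaled for transcript length and to a fixed library total) of at least 1 in 2 or more libraries. A high TPM is therefore a description of the members and not a finding. The 34 comprised 1 gene of family 1, 20 of family 2, 4 of family 3 and 9 of family 4, and all 34 had enough counts to be tested.

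The libraries came from intestinal stem cells of C57Bl/6 mice, sorted by a fluorescent reporter, 1 library per animal and 10 animals in all. Reserve stem cells were sorted from Hopx-CreER::LSL-tdTomato mice that were Calorie Restricted (Hopx CR, n = 2) or fed ad libitum (Hopx AL, n = 2). Active stem cells were sorted from Lgr5-EGFP-IRES-CreER mice on the same feeding schedules (Lgr5 CR, n = 3, and Lgr5 AL, n = 3). Each of 5 isolations supplied 1 CR and 1 AL animal, isolations 4 and 5 for the Hopx cells and isolations 1 to 3 for the Lgr5 cells, and values below follow the isolation number within a group. In the Hopx mice an inducible Cre driven from Hopx switches on tdTomato, so the colour marks cells that made Cre and whatever descends from them, whereas EGFP in the Lgr5 mice is made under Lgr5 itself. Every animal carried a CreER allele. The length and depth of the restriction, the induction schedule and the age and sex of the mice were not given in the sources used here. The study's title places the comparison in intestinal regeneration under calorie restriction.

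P450 enzymes are heme proteins of the endoplasmic reticulum that insert an oxygen atom into their substrate, with electrons passed on by the reductase encoded by Por. Family 1 is controlled by the aryl hydrocarbon receptor, the Cyp2b, Cyp2c and Cyp3a genes by the xenobiotic receptors Pxr (gene Nr1i2) and Car (gene Nr1i3), and the Cyp4a genes by Ppar-alpha (gene Ppara). In the small intestine the enzymes are known mainly from absorptive enterocytes of the villus, where Cyp3a enzymes carry out first-pass metabolism of drugs.

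The libraries held between 20251405 and 87215705 estimated counts each. Lgr5 mRNA, which codes for the sort marker, had 31.1 and 14.1 TPM in Hopx CR, 9.89 and 16.5 TPM in Hopx AL, 58.5, 35.3 and 69.0 TPM in Lgr5 CR, and 18.4, 34.5 and 93.9 TPM in Lgr5 AL. Hopx mRNA was listed at 111 and 80.4 TPM in Hopx CR and 76.0 and 96.5 TPM in Hopx AL, below all 6 Lgr5 libraries, which ran between 138 and 238 TPM. The mRNA of Hopx therefore did not separate the sorts in the direction of their label. Transcripts of enterocytes were abundant in every library, with a summed level of 27 marker genes between 10740 and 36140 TPM. Transcripts of the Y-linked gene Eif2s3y stood at 0.125 TPM in the CR animal of isolation 4, at 0.0766 and 0.0450 TPM in the CR and the AL animal of isolation 3, and between 8.91 and 30.5 TPM in the other 7 libraries, so that the animals of isolation 4 differed from each other in these transcripts.

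In every group the P450 transcript pool was dominated by a few genes. The summed level of the 34 genes was 2054 and 2550 TPM in Hopx CR against 670.1 and 595 TPM in Hopx AL. It was 3546, 2432 and 3368 TPM in Lgr5 CR against 2279, 1011 and 786.6 TPM in Lgr5 AL. In both cell populations each CR library had a larger P450 sum than each AL library. Because these are bulk samples, fewer cells of a type and less RNA per cell cannot be told apart in such sums. TPM and counts scaled to library sizes adjusted by TMM, edgeR's correction for library composition, also gave differences of unlike size. Cyp4f16 in isolation 4 had a CR over AL ratio of 2.2 in TPM, more than a doubling. Its log2 difference in scaled counts was 0.66, less than a doubling. In isolation 3 the TPM ratio was 0.98 and the log2 difference in scaled counts 0.50. The part of scaling in the sums was not tested. Cyp3a11 alone made up 20.4% and 32.9% of the sum in Hopx CR, 16.9% and 9.49% in Hopx AL, 30.8%, 28.5% and 34.1% in Lgr5 CR, and 13.4%, 16.6% and 9.20% in Lgr5 AL. It was the most abundant of the 34 in all 5 CR libraries, in the second Lgr5 AL library and in the first Hopx AL library. In the AL libraries the top place otherwise went to Cyp3a13, in the third Lgr5 AL and the second Hopx AL library, or to Cyp4f14, in the first Lgr5 AL library. Without Cyp3a11 the sum of the remaining 33 was 1634 and 1710 TPM in Hopx CR against 556.8 and 538.5 TPM in Hopx AL, and 2455, 1739 and 2220 TPM in Lgr5 CR against 1973, 842.3 and 714.3 TPM in Lgr5 AL. Taking it out left the Hopx groups apart, whereas the first Lgr5 AL library then lay above the second Lgr5 CR library.

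**Figure D1:**
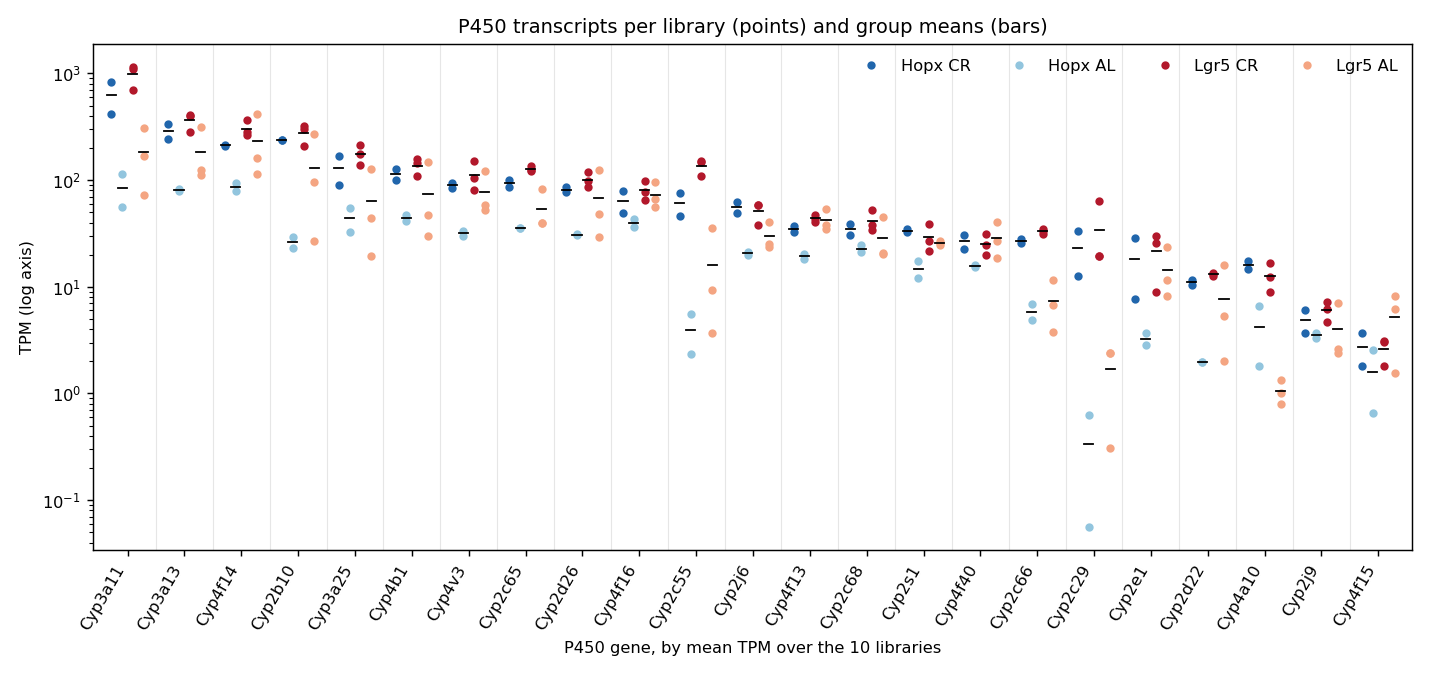
TPM (log axis) of the 23 P450 genes with the highest mean level, with 1 point per library and a bar at each group mean, for Hopx CR, Hopx AL, Lgr5 CR and Lgr5 AL from left to right within a gene. Cyp3a11 is the highest, between 56.5 and 1149 TPM. The CR and AL points lie farthest apart for Cyp2c29 in both populations, followed by Cyp2c55 in Hopx cells and Cyp4a10 in Lgr5 cells.

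The Cyp3a enzymes oxidise drugs, steroids and bile acids. Cyp3a11, the mouse gene usually set beside the main drug-metabolising P450 of human intestine, had 420.2 and 839.7 TPM in Hopx CR against 113 and 56.5 TPM in Hopx AL. In Lgr5 cells it had 1090, 693 and 1149 TPM under CR against 305.1, 168 and 72.4 TPM under AL. The CR and AL libraries did not overlap in either population, and the third Lgr5 AL library was the lowest of its group. The log2 fold change of CR over AL was 2.51 ± 0.76 (SE) in Hopx cells and 2.49 ± 0.62 in Lgr5 cells, with adjusted p-values of 0.479 and 0.228 in edgeR's quasi-likelihood test with Benjamini-Hochberg adjustment over 15839 genes. The estimates were close to each other, with a difference of 0.02 ± 0.92, and neither passed the threshold of 0.05.

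Cyp3a13, a Cyp3a enzyme known from the mouse intestine, had 242 and 334 TPM in Hopx CR against 79.0 and 82.9 TPM in Hopx AL. Its levels in Lgr5 cells were 410.2, 281 and 399 TPM under CR against 314, 111 and 125 TPM under AL. The Lgr5 groups overlapped because the AL library of isolation 1 exceeded the CR library of isolation 2. The log2 fold change was 1.53 ± 0.54 in Hopx cells (adjusted p = 0.514, edgeR) and 1.10 ± 0.44 in Lgr5 cells (adjusted p = 0.457, edgeR). Cyp3a25 stood at 90.5 and 168 TPM in Hopx CR against 55.2 and 32.6 TPM in Hopx AL, and at 215.5, 137 and 177 TPM in Lgr5 CR against 127, 44.2 and 19.4 TPM in Lgr5 AL. Its groups did not overlap in either population, with log2 fold changes of 1.20 ± 0.80 in Hopx cells (adjusted p = 0.7003, edgeR) and 1.52 ± 0.66 in Lgr5 cells (adjusted p = 0.498, edgeR). Cyp3a59, the last of the 4, stayed at or below 1.12 TPM in all libraries, and 49.9% of its 31-base stretches occur also in other genes, chiefly Cyp3a25, so that the split of reads between these neighbours is uncertain.

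The Cyp2c genes code for epoxygenases and hydroxylases of arachidonic acid and many drugs. In the RefSeq annotation of build GRCm38.p6, 14 of them follow one another on chromosome 19, beginning with Cyp2c55, Cyp2c65, Cyp2c66 and Cyp2c29. For these 4 neighbours the CR and AL libraries overlapped in neither population. Cyp2c29, best known as a Car-responsive gene of mouse liver, had 12.5 and 33.2 TPM in Hopx CR against 0.622 and 0.0557 TPM in Hopx AL. In Lgr5 cells it had 19.5, 19.6 and 63.9 TPM under CR against 2.41, 2.37 and 0.307 TPM under AL. The AL values of the second Hopx and the third Lgr5 library rested on 4 and 7 estimated counts, while each CR library held at least 889, so the size of the fold is poorly fixed. Its fitted log2 fold change was 5.53 ± 1.28 in Hopx cells (adjusted p = 0.455, edgeR) and 4.34 ± 0.98 in Lgr5 cells (adjusted p = 0.202, edgeR).

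Cyp2c55, an arachidonic acid hydroxylase known from the mouse gut, had 46.5 and 75.5 TPM in Hopx CR against 5.51 and 2.34 TPM in Hopx AL. Its levels were 152, 108 and 148 TPM in Lgr5 CR against 35.5, 9.24 and 3.66 TPM in Lgr5 AL. All CR libraries lay above all AL libraries, by a log2 fold change of 3.56 ± 1.00 in Hopx cells (adjusted p = 0.478, edgeR) and 3.11 ± 0.80 in Lgr5 cells (adjusted p = 0.242, edgeR). Cyp2c66 had 25.9 and 28.1 TPM in Hopx CR against 6.82 and 4.85 TPM in Hopx AL, and 33.2, 31.02 and 34.9 TPM in Lgr5 CR against 11.5, 6.74 and 3.77 TPM in Lgr5 AL. Its 5 CR libraries spanned a narrower range than those of any neighbour, and no AL library came near them. The log2 fold change was 1.87 ± 0.55 in Hopx cells (adjusted p = 0.478, edgeR) and 2.26 ± 0.45 in Lgr5 cells (adjusted p = 0.188, edgeR). Cyp2c65 had 99.4 and 86.6 TPM in Hopx CR against 35.6 and 35.9 TPM in Hopx AL, and 135, 124 and 121 TPM in Lgr5 CR against 82.8, 39.6 and 39.6 TPM in Lgr5 AL. Here too the groups did not overlap, with log2 fold changes of 1.08 ± 0.43 in Hopx cells (adjusted p = 0.546, edgeR) and 1.36 ± 0.35 in Lgr5 cells (adjusted p = 0.249, edgeR).

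Another gene of the run, Cyp2c68, differed less, with 38.8 and 30.9 TPM in Hopx CR against 24.4 and 21.2 TPM in Hopx AL, and with 52.7, 34.3 and 37.6 TPM in Lgr5 CR against 44.6, 20.8 and 20.29 TPM in Lgr5 AL. Cyp2c67, Cyp2c40 and Cyp2c70 were low. Between 62.0% and 72.6% of the 31-base stretches of Cyp2c68, Cyp2c67 and Cyp2c40 recur in other genes, against 3.41% for Cyp2c55, 10.5% for Cyp2c29 and 0 for Cyp2c70. Cyp2c65 and Cyp2c66 shared 35.4% and 33.4% of theirs, mainly with each other, so that part of their likeness may be shared reads.

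The 250 bases before the transcript start are shown for the highest member, Cyp3a11, for the neighbours Cyp2c65 and Cyp2c66, and for Cyp2c68, whose diet difference was smaller, because members that differ in the diet contrast can be set beside one that differed less. The sequences are from RefSeq, build GRCm38.p6, on the strand of the gene. Capitals mark exact matches on either strand to CAAAGTCCA, a core bound by the nuclear receptor Hnf4, and to AGGTCA, the half-site common to many nuclear receptors. Cyp3a11 is at chr5:145879855-145880104 (minus strand), Cyp2c65 at chr19:39060756-39061005 (plus strand), Cyp2c66 at chr19:39113648-39113897 (plus strand) and Cyp2c68 at chr19:39741102-39741351 (minus strand).
Cyp3a11: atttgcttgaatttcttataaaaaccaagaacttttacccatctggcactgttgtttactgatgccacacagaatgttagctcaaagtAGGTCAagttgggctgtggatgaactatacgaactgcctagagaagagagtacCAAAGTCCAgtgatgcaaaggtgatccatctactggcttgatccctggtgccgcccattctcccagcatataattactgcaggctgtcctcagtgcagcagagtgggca
Cyp2c65: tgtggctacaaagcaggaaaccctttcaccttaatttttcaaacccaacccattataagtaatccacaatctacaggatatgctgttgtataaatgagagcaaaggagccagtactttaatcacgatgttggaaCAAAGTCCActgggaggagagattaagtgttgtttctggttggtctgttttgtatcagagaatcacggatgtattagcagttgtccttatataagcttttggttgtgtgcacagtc
Cyp2c66: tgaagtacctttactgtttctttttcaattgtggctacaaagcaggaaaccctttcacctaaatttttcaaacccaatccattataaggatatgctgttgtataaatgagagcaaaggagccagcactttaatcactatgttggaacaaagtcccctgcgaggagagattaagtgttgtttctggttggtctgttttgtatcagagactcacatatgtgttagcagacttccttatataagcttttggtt
Cyp2c68: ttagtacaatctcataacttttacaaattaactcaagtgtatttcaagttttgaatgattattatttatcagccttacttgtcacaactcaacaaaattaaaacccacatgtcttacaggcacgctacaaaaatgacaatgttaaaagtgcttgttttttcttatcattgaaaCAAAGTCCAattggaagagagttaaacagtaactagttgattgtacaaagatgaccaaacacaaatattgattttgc
The Hnf4 core lies 109 to 101 bases before the start of Cyp3a11, 116 to 108 before that of Cyp2c65 and 77 to 69 before that of Cyp2c68. Its letters occur in 6 of the 31 described genes with a listed promoter, namely Cyp2c40, Cyp2c65, Cyp2c67, Cyp2c68, Cyp2c70 and Cyp3a11, and in 64 of 17492 promoters in all (0.366%). The motif was picked after the sequences had been seen, both strands were read, and the Cyp2c holders are related copies. Cyp2c66 has no exact match although 94.1% of the 221 bases aligned with Cyp2c65 are identical, and Cyp2c29 and Cyp2c55 have none either. The match was thus present in Cyp2c68, with its smaller diet difference, and absent from Cyp2c66, with a larger one. AGGTCA was found in 6 of the 31 (12.6% of all promoters), its direct repeat with 1 base N of any kind between the copies in 0 (0.0457%), TATAAA in 12 (12.4%), and GCGTG, the core bound by the aryl hydrocarbon receptor, in 8 (33.6%). The repeat contains the half-site, so those 2 searches overlap.

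Cyp2b10, the standard target gene of Car in mouse liver, had the largest estimated gap in diet effect between the populations among the 5 most abundant genes. It had 238 and 237 TPM in Hopx CR against 23.2 and 29.1 TPM in Hopx AL, and 322, 209 and 302 TPM in Lgr5 CR against 270.2, 95.1 and 26.9 TPM in Lgr5 AL. The Hopx groups were far apart, whereas the AL library of isolation 1 lay within the range of the Lgr5 CR libraries. The log2 fold change was 2.90 ± 0.88 in Hopx cells (adjusted p = 0.486, edgeR) and 1.12 ± 0.68 in Lgr5 cells (adjusted p = 0.624, edgeR). Without the first Lgr5 AL library the value of Cyp2b10 in Lgr5 cells was 2.32. The difference between the 2 diet effects, Hopx minus Lgr5, was 1.78 ± 1.07 (unadjusted p = 0.126, adjusted p above 0.999 by edgeR), so it was not distinguishable from 0.

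Family 4 holds the omega-hydroxylases of fatty acids and eicosanoids. Cyp4a10, a classical Ppar-alpha target, had 17.5 and 14.6 TPM in Hopx CR against 6.64 and 1.81 TPM in Hopx AL, and 8.86, 12.4 and 16.7 TPM in Lgr5 CR against 1.33, 1.01 and 0.793 TPM in Lgr5 AL. All CR libraries exceeded all AL libraries, and the Hopx AL animal of isolation 4 stood apart from the other AL animals. In Lgr5 cells its log2 fold change was 3.72 ± 0.58, with the smallest adjusted p of any member in that contrast (0.134, edgeR), and in Hopx cells 1.504 ± 0.635 (adjusted p = 0.565, edgeR). The difference between the 2, Hopx minus Lgr5, was -2.21 ± 0.83 (unadjusted p = 0.0232, adjusted p above 0.999 by edgeR). Without isolation 4, whose CR and AL animals differed in Y-linked transcripts, that difference for Cyp4a10 was -0.76, and the part of the animals' difference in it was not tested. That fit held a single Hopx library for each diet. Of the 31-base stretches of Cyp4a10, 44.9% recur in other genes, chiefly Cyp4a32, which itself stayed between 0.463 and 2.78 TPM.

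Cyp4f14, which inactivates leukotriene B4, followed Cyp3a11 and Cyp3a13 in mean level, with 212 and 210.3 TPM in Hopx CR against 93.1 and 79.5 TPM in Hopx AL, and 364, 264 and 280.1 TPM in Lgr5 CR against 416, 162 and 114 TPM in Lgr5 AL. The highest of all 10 values belonged to an AL library, that of isolation 1. The log2 fold change was 0.97 ± 0.60 in Hopx cells (adjusted p = 0.677, edgeR) and 0.48 ± 0.49 in Lgr5 cells (adjusted p = 0.796, edgeR), and 1.37 in Lgr5 cells for Cyp4f14 without that library. Cyp4b1, a hydroxylase of medium-chain fatty acids, had 128 and 99.4 TPM in Hopx CR against 47.2 and 41.1 TPM in Hopx AL, and 143, 109 and 158 TPM in Lgr5 CR against 146, 47.3 and 29.6 TPM in Lgr5 AL. Cyp4v3, the mouse counterpart of a fatty acid hydroxylase mutated in a human retinal dystrophy, had 94.5 and 85.0 TPM in Hopx CR against 29.9 and 33.5 TPM in Hopx AL, and 149, 80.6 and 105 TPM in Lgr5 CR against 122, 52.1 and 58.7 TPM in Lgr5 AL. For both genes the first Lgr5 AL library reached into the CR range while the Hopx groups stayed apart, and Cyp4v3 had a log2 fold change of 1.21 ± 0.48 in Hopx cells (adjusted p = 0.542, edgeR). The remaining Cyp4f genes, Cyp4f13, Cyp4f16, Cyp4f40 and Cyp4f15, had Lgr5 groups that overlapped.

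Among the other family 2 genes, Cyp2j6, an intestinal member of the arachidonic acid epoxygenases, had the most even diet difference across isolations. It had 62.9 and 49.0 TPM in Hopx CR against 20.1 and 21.3 TPM in Hopx AL, and 58.3, 37.5 and 58.0 TPM in Lgr5 CR against 25.3, 23.7 and 40.9 TPM in Lgr5 AL. By count the CR libraries of each population lay above its AL libraries, although in TPM the third Lgr5 AL library exceeded the second Lgr5 CR library. The log2 fold change was 1.14 ± 0.24 in Hopx cells (adjusted p = 0.449, edgeR) and 1.02 ± 0.20 in Lgr5 cells (adjusted p = 0.177, edgeR). Within the 5 isolations the difference in log2 CPM (counts scaled to a common library size) ran from 0.76 to 1.20, the narrowest of the members that were higher under CR in all 5.

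Cyp2e1, which oxidises ethanol and acetone, had 28.7 and 7.66 TPM in Hopx CR against 2.83 and 3.70 TPM in Hopx AL, and 25.5, 8.93 and 29.9 TPM in Lgr5 CR against 8.11, 11.5 and 23.7 TPM in Lgr5 AL. Its Hopx groups were apart, by a log2 fold change of 2.22 ± 0.66 (adjusted p = 0.478, edgeR), and its Lgr5 groups overlapped. The log2 CPM difference of Cyp2e1 was 2.86 in isolation 4 and 0.95 in isolation 5. The animals of isolation 4 also differed in Y-linked transcripts, and the part of the animals' difference in Cyp2e1 was not tested. Cyp2d22 had 10.4 and 11.6 TPM in Hopx CR against 1.96 and 1.98 TPM in Hopx AL, and 13.2, 12.7 and 13.4 TPM in Lgr5 CR against 16.0, 5.28 and 2.01 TPM in Lgr5 AL. The CR libraries of Cyp2d22 were close to each other while the Lgr5 AL libraries spread widely, and in Hopx cells the log2 fold change was 2.17 ± 0.80 (adjusted p = 0.526, edgeR). Cyp2s1, a P450 found mainly outside the liver, had a log2 fold change of 0.91 ± 0.27 in Hopx cells (adjusted p = 0.478, edgeR), and its Lgr5 groups overlapped. Cyp2d10 and Cyp2j9, both low, had log2 fold changes of CR over AL in Lgr5 cells of 1.87 ± 0.51 (adjusted p = 0.268, edgeR) and 0.92 ± 0.34 (adjusted p = 0.414, edgeR). Their values in Hopx cells were 0.82 ± 0.60 for Cyp2d10 and 0.18 ± 0.40 for Cyp2j9. In Lgr5 AL the values of Cyp2d10 rested on 28, 34 and 9 estimated counts. The difference of the diet effects, Hopx minus Lgr5, was -1.05 ± 0.78 for Cyp2d10 and -0.73 ± 0.52 for Cyp2j9. The unadjusted p-values were 0.207 and 0.192 and the adjusted p-values above 0.999 by edgeR, so the diet effects were not shown to differ between the populations. Cyp2f2 met the level in 2 or more CR libraries but not in 2 or more AL libraries. The choice thus favoured its diet difference, which is given as a description. It had 1.41 and 0.781 TPM in Hopx CR against 0.680 and 1.78 TPM in Hopx AL. In Lgr5 cells it had 0.374, 1.04 and 2.21 TPM under CR against 0.0301, 0.430 and 0 TPM under AL. The Lgr5 AL values of Cyp2f2 rested on 1, 28 and 0 estimated counts. The fatty acid hydroxylase Cyp2u1 met the level through CR libraries only, so that its diet difference is given as a description, with 1.81 and 1.55 TPM in Hopx CR against 0.901 and 0.667 TPM in Hopx AL, and 2.26, 0.888 and 1.88 TPM in Lgr5 CR against 0.718, 0.981 and 0.778 TPM in Lgr5 AL.

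**Figure D2:**
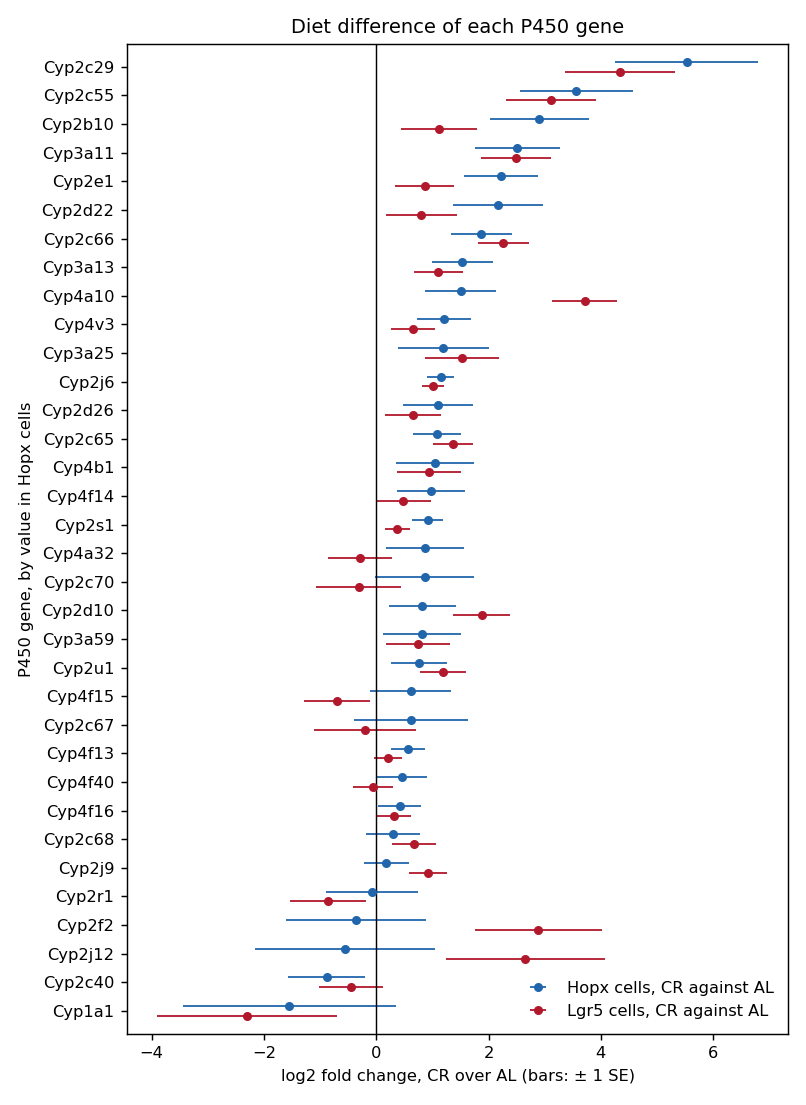
Log2 fold change of CR over AL for each of the 34 P450 genes, Hopx cells above Lgr5 cells, with bars of 1 SE on either side. Points lie right of 0 for 29 genes in Hopx cells and 26 in Lgr5 cells, with Cyp2c29 farthest right and Cyp1a1 farthest left.

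None of the 34 P450 genes passed an adjusted p of 0.05 in edgeR's quasi-likelihood test for diet in either population. The background was almost as empty, at 0.0126% of all genes tested in Hopx cells and 0.0189% in Lgr5 cells. At an unadjusted p under 0.05, 13 of the 34 were higher under CR in Hopx cells (5.41% of all genes) and 13 in Lgr5 cells (5.57%). The number lower at that level was 0 in both, against 3.11% and 4.21% of all genes. Estimates above 0 were found for 29 members in Hopx cells (48.6% of all genes) and for 26 in Lgr5 cells (51.8%). Estimates of more than a doubling, a log2 fold change above 1, were found for 15 members in Hopx cells (5.8% of all genes) and for 14 in Lgr5 cells (5.97%). The median log2 fold change of the members was 0.89 in Hopx cells, with -0.02 over all genes, and 0.83 in Lgr5 cells, with 0.02 over all genes. These counts include members that had met the level only, or nearly only, through the libraries of 1 diet, which the choice favoured to differ. For the 25 that met it in 2 or more libraries of each diet, 13 in Hopx cells and 11 in Lgr5 cells were higher under CR at an unadjusted p under 0.05, 0 were lower in either, and estimates were above 1 for 15 and 11.

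Other tools called more genes, members included. DESeq2 called 5 members in Hopx cells (Cyp2b10, Cyp2c29, Cyp2e1, Cyp2j6 and Cyp3a11), with 0.924% of all genes called, and 8 in Lgr5 cells (Cyp2c29, Cyp2c55, Cyp2c65, Cyp2c66, Cyp2d10, Cyp2j6, Cyp3a11 and Cyp4a10), with 2.26% of all genes. On log2(TPM + 1) limma called 0 members in Hopx cells (0.0314% of all genes) and 5 in Lgr5 cells (0.259%). Without the first Lgr5 AL library edgeR called 6 members in Lgr5 cells (Cyp2c55, Cyp2c65, Cyp2c66, Cyp3a13, Cyp4a10 and Cyp4b1), with 0.694% of all genes called. At an unadjusted p under 0.05 there were then 20 members higher under CR in Lgr5 cells (9.63% of all genes). Cyp4a10 was called in Lgr5 cells without the first Hopx AL library (0.0414% of all genes) and without the second (0.0535%). In Hopx cells the count at an unadjusted p under 0.05 was 6 without the second Hopx AL library (3.27% of all genes) and 6 without isolation 4 (2.73%).

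Compared as CPM, libraries of the 2 diets did not overlap, with CR higher, for 23 members in Hopx cells (21.5% of all genes, with 2 libraries a group) and for 10 in Lgr5 cells (7.41%). The 10 were Cyp2c29, Cyp2c55, Cyp2c65, Cyp2c66, Cyp2d10, Cyp2j6, Cyp2j9, Cyp3a11, Cyp3a25 and Cyp4a10. In TPM the Lgr5 groups of Cyp2j6 and Cyp2j9 overlapped. Cyp2j9 had 6.99 TPM in the third Lgr5 AL library against 4.71 TPM in the second Lgr5 CR library. With CR lower there was 1 in Hopx cells, Cyp2c40 (21.1%), and 0 in Lgr5 cells (7.49%). The Hopx groups of Cyp2c40 overlapped in TPM, with 1.17 TPM in the second CR library against 0.869 TPM in the first AL library.

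The isolations allowed each CR animal to be set against the AL animal prepared beside it. CR was the higher of the pair for 31 and 26 of the 34 genes in isolations 4 and 5 (Hopx) and for 24, 25 and 28 in isolations 1, 2 and 3 (Lgr5). Over all genes the share was between 49.1% and 53.2%. Members higher under CR in all 5 isolations numbered 14 (8.71% of all genes), and they were Cyp2b10, Cyp2c29, Cyp2c55, Cyp2c65, Cyp2c66, Cyp2c68, Cyp2d10, Cyp2j6, Cyp3a11, Cyp3a13, Cyp3a25, Cyp4a10, Cyp4f16 and Cyp4v3. Lower in all 5 was Cyp2c40 alone (7.68%). The size varied between pairs. For Cyp3a11 the difference in log2 CPM was 1.42 and 3.79 in isolations 4 and 5 and 1.83, 2.14 and 4.52 in isolations 1 to 3. For Cyp2c55 it was 2.597 and 4.91 in the Hopx pairs and 2.09, 3.64 and 5.85 in the Lgr5 pairs. Isolation 3 gave the largest difference among the Lgr5 pairs and isolation 5 the larger of the Hopx pairs for both genes, and isolation 1 had the smallest median over the 34 genes, 0.53, against 1.80 in isolation 3.

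**Figure D3:**
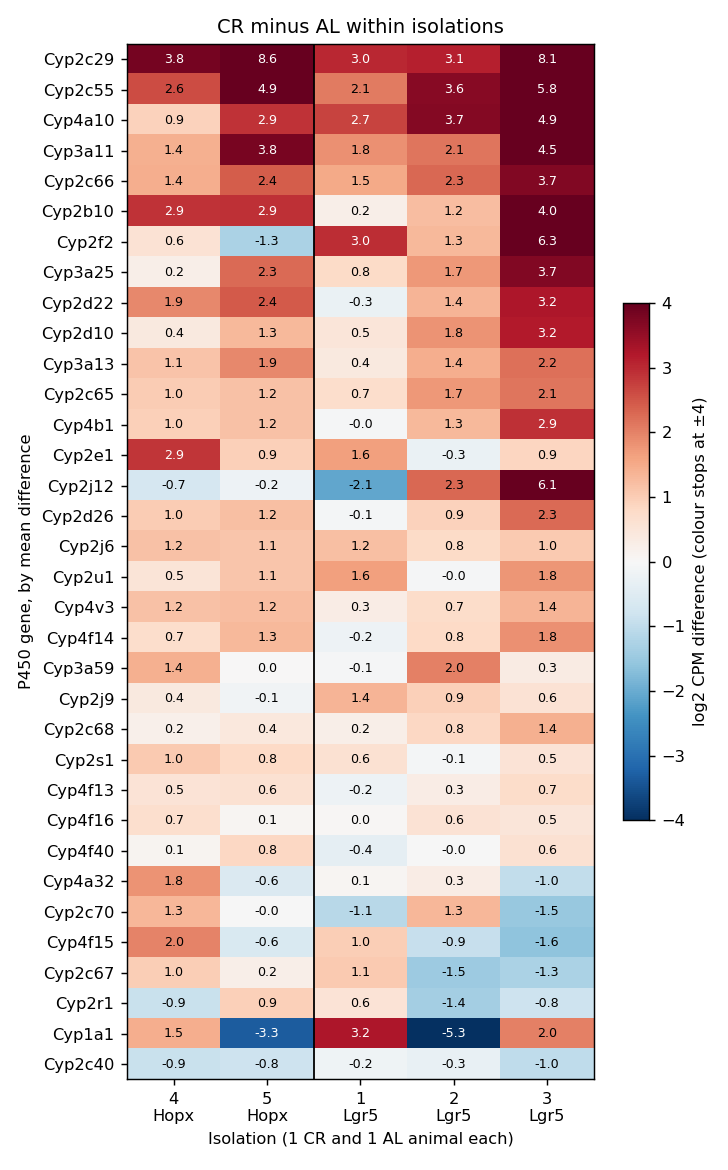
Difference in log2 CPM, CR animal minus AL animal, for 34 P450 genes (rows, by mean difference) in isolations 4 and 5 (Hopx) and 1 to 3 (Lgr5), with red for CR higher and blue for CR lower. The top rows, Cyp2c29 to Cyp2b10, are red in all 5 columns, and Cyp2c40 at the bottom is blue in all 5.

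Averaged over both populations the diet contrast used all 10 libraries, and 17 members were higher under CR at an unadjusted p under 0.05 (8.35% of all genes) and 0 lower (6.17%). Estimates were above 0 for 30 members (49.9%) and above 1 for 15 (4.51%). The smallest adjusted p-values in edgeR belonged to Cyp2j6 (log2 fold change 1.08 ± 0.16, adjusted p = 0.0597), Cyp4a10 (2.61 ± 0.43, adjusted p = 0.0698), Cyp2c29 (4.93 ± 0.82, adjusted p = 0.0698) and Cyp2c66 (2.06 ± 0.36, adjusted p = 0.0741). Adjusted p-values of 0.103 for Cyp2c55 and 0.106 for Cyp3a11 followed. Of the 25 members that met the level in 2 or more libraries of each diet, 16 were higher at an unadjusted p under 0.05 and 0 lower. No member was called (0.00631% of all genes were). DESeq2 called 13 (4.13% of all genes) and limma on log2(TPM + 1) called 9 (0.69%). Without the first Lgr5 AL library edgeR called 15 (2.22% of all genes), and without the first Hopx AL library it called 1, Cyp4a10 (0.0533%). A difference in diet response between the populations was seen at an unadjusted p under 0.05 for 1 member, Cyp4a10 (1.89% of all genes), with 0 in the other direction (2.83%) and 0 called in edgeR, DESeq2 or limma (0.00631% of all genes called in edgeR).

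Enterocyte transcripts differed between the diets in the same direction as the P450 genes. All 27 enterocyte markers had higher estimates under CR in both populations, with 0 called by edgeR, and 5 in Hopx cells and 8 in Lgr5 cells had an unadjusted p under 0.05. The median log2 fold change of these markers was 1.01 in Hopx cells and 0.87 in Lgr5 cells, against 0.89 and 0.83 for the 34 P450 genes. For the 25 P450 genes that met the level in 2 or more libraries of each diet, the medians were 1.10 and 0.92. The order of P450 genes and markers thus depended on whether the members near the level were counted. Their summed level was 19580 and 23740 TPM in Hopx CR against 10960 and 11160 TPM in Hopx AL, and 33710, 23660 and 26550 TPM in Lgr5 CR against 36140, 11640 and 10740 TPM in Lgr5 AL. None of the 27 was at 0. The Lgr5 AL library of isolation 1, in which several P450 genes reached the CR range, thus had the highest enterocyte sum of all. Apoa1 alone had 11830 TPM in that library, against 7983 TPM in the CR library of the same isolation. The marker sum, and the percentages taken of it below, are therefore weighted to a few abundant markers. By the median marker, isolation 1 was higher under CR, with a log2 CPM difference of 0.21.

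Over all 34 P450 genes, sums and typical genes compared differently. The P450 sum, which is weighted to Cyp3a11 and a few other abundant genes, differed by more than the marker sum within each isolation. As log2 ratios of CR over AL, the P450 and the enterocyte sum gave 1.62 and 0.84 in isolation 4, 2.10 and 1.09 in isolation 5, 0.64 and -0.10 in isolation 1, 1.27 and 1.02 in isolation 2, and 2.10 and 1.31 in isolation 3. Expressed as a percentage of the enterocyte sum, the P450 sum was 10.5% and 10.7% in Hopx CR against 6.12% and 5.33% in Hopx AL, and 10.5%, 10.3% and 12.7% in Lgr5 CR against 6.30%, 8.68% and 7.32% in Lgr5 AL. These shares did not overlap between the diets in either population. Gene by gene, the median difference in log2 CPM of the 34 P450 genes and of the markers was 1.01 and 0.74 in isolation 4, 1.03 and 1.40 in isolation 5, 0.53 and 0.21 in isolation 1, 0.93 and 1.13 in isolation 2, and 1.80 and 2.06 in isolation 3. Over all 34 the P450 median was thus the larger in isolations 4 and 1 and the smaller in isolations 5, 2 and 3. This order depended on the members near the level. For the 25 that met it in 2 or more libraries of each diet, the middle value was 1.23 in isolation 2 (Cyp2b10) and 2.14 in isolation 3 (Cyp2c65). Both were above the marker medians, whereas in isolation 5 the middle value, 1.20 (Cyp2d26), was below that of the markers. Members above the marker median numbered 21 and 9 of 34 in isolations 4 and 5, and 22, 16 and 15 in isolations 1, 2 and 3. Cyp2c29 differed by more than the most different enterocyte marker in all 5 isolations, and Cyp2c55 and Cyp4a10 did so in 4 each. In isolation 4 the members above every marker were 4 (Cyp2b10, Cyp2c29, Cyp2c55 and Cyp2e1), in isolation 5 they were 8, and in isolations 1, 2 and 3 they were 4, 8 and 9. The part of enterocyte RNA in the differences of single P450 genes was not tested.

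**Figure D4:**
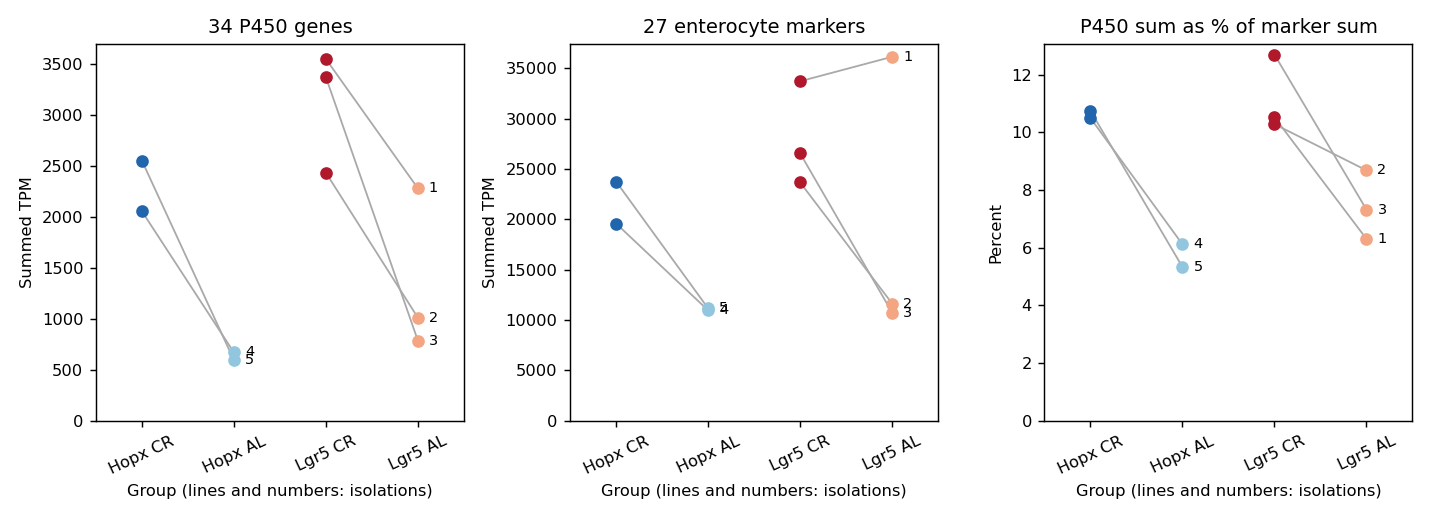
Summed TPM of 34 P450 genes (left), of 27 enterocyte markers (middle) and the first as a percentage of the second (right), with 1 point per library and lines joining the CR and AL animals of an isolation, numbered at the AL end. The percentage is between 10.3 and 12.7 in the 5 CR libraries and between 5.33 and 8.68 in the 5 AL libraries, while the marker sum of isolation 1 is higher in its AL library.

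Other cell types were followed by their own marker lists. The liver is the organ with the highest known P450 content, and hepatocyte markers summed to 40.5 and 20.32 TPM in Hopx CR against 20.2 and 35.0 TPM in Hopx AL, and to 18.6, 28.3 and 19.2 TPM in Lgr5 CR against 10.8, 28.2 and 36.5 TPM in Lgr5 AL, with Fgb, Fga, Ahsg, Hp and Mup3 below 1 TPM in all libraries. Their sums did not separate the diets, and 4 of the 6 tested were higher and 2 lower under CR in each population. Serpina1c alone did not overlap in either, with 6.2 and 4.8 TPM in Hopx CR against 2.6 and 4.1 TPM in Hopx AL. In Lgr5 cells Serpina1c had 4.8, 8.2 and 3.8 TPM under CR against 0.64, 2.1 and 2.1 TPM under AL. Tuft cell markers summed to 262 and 152 TPM in Hopx CR against 236 and 124 TPM in Hopx AL, and to 95.5, 113 and 66.1 TPM in Lgr5 CR against 328, 183 and 675 TPM in Lgr5 AL, with Il25 and Tas1r3 below 1 TPM. All 15 tuft markers had lower estimates under CR in Lgr5 cells, with 12 at an unadjusted p under 0.05 and 0 called in edgeR, so that they differed in the opposite direction to the P450 genes there. Paneth markers were lower under CR for 13 of 14 in Hopx cells and higher for 10 of 14 in Lgr5 cells, and their sums overlapped between the diets in both, for instance 131900 to 167400 TPM in Lgr5 CR against 68720 to 180500 TPM in Lgr5 AL. Of the enteroendocrine markers 15 of 16 were lower under CR in Hopx cells and 10 of 16 higher in Lgr5 cells. Goblet markers were split 5 to 5 in both populations. Active stem cell markers were higher for 8 of 10 in Hopx cells and 4 of 10 in Lgr5 cells, immune markers lower for 13 of 14 and 9 of 14. Stromal and endothelial markers summed to no more than 28.4 TPM in any library, and Lum was at 0 in all. None of these markers was called for diet by edgeR, and their part in the P450 differences was not tested.

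Genes that serve P450 enzymes were examined for the same diet contrast. Of 11 microsomal partners, 8 had higher and 3 lower estimates under CR in each population, with 0 called by edgeR. Por, the electron donor of all microsomal P450 enzymes, had 146 and 123 TPM in Hopx CR against 71.4 and 40.1 TPM in Hopx AL, and 232, 131 and 179 TPM in Lgr5 CR against 100.5, 68.5 and 81.2 TPM in Lgr5 AL. Its groups did not overlap, and the log2 fold change was 0.91 ± 0.42 in Hopx cells (adjusted p = 0.591, edgeR) and 1.28 ± 0.35 in Lgr5 cells (adjusted p = 0.261, edgeR). Cyb5r1, a reductase of cytochrome b5, had the opposite sign, -0.81 ± 0.25 in Hopx cells and -0.54 ± 0.21 in Lgr5 cells. The 8 enzymes of heme synthesis were split 4 to 4 in both populations, with Uros, the uroporphyrinogen III synthase, at -0.54 ± 0.26 in Hopx cells and -0.86 ± 0.22 in Lgr5 cells. No enzyme of heme synthesis was called.

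Of 19 receptors and factors that regulate P450 genes, 18 had higher estimates under CR in Hopx cells and 14 in Lgr5 cells, 0 called by edgeR. The bile acid receptor gene Nr1h4 had log2 fold changes of 0.55 ± 0.22 in Hopx cells and 0.81 ± 0.18 in Lgr5 cells (adjusted p = 0.541 and 0.190, edgeR), and Hnf4g, a relative of Hnf4a, of 0.91 ± 0.34 and 1.09 ± 0.28 (adjusted p = 0.531 and 0.242, edgeR). The receptors of the Cyp2b, Cyp2c and Cyp3a genes were present in all libraries, with Nr1i3 between 9.88 and 34.2 TPM and Nr1i2 between 6.07 and 13.7 TPM. Targets of Ppar-alpha outside the P450 families had higher estimates under CR for 21 of 21 tested in Hopx cells and 19 of 21 in Lgr5 cells, with medians of 0.80 and 0.70 and 0 called by edgeR. Among them Acadl, an enzyme of fatty acid oxidation, had 0.95 ± 0.26 in Hopx cells (adjusted p = 0.478, edgeR) and 1.23 ± 0.22 in Lgr5 cells (adjusted p = 0.163). Fabp1 and Fabp2 are on both this list and that of enterocytes. Targets of the aryl hydrocarbon receptor were higher for 4 of 6 tested in each population, with 0 called by edgeR. Nqo1, a quinone reductase, had a log2 fold change of 0.22 ± 0.38 in Hopx cells (adjusted p = 0.899, edgeR) and 1.51 ± 0.32 in Lgr5 cells (adjusted p = 0.189), with a difference of -1.29 ± 0.50 (unadjusted p = 0.0269, adjusted p above 0.999 by edgeR). Gsta1, a glutathione transferase, had 0.51 ± 0.68 in Hopx cells (adjusted p = 0.860, edgeR) and 2.44 ± 0.59 in Lgr5 cells (adjusted p = 0.222), with a difference of -1.93 ± 0.89 (unadjusted p = 0.0551, adjusted p above 0.999 by edgeR).

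The P450 gene most directly tied to that receptor, Cyp1a1, had no regular difference by diet. It was listed at 0.452 and 0.154 TPM in Hopx CR against 0.111 and 1.56 TPM in Hopx AL, and at 0.161, 0.0569 and 0.445 TPM in Lgr5 CR against 0, 3.25 and 0.136 TPM in Lgr5 AL. A single AL library in each population carried the level, and the groups overlapped. Within isolations its log2 CPM difference was 1.46 and -3.33 in the Hopx pairs and 3.25, -5.35 and 2.02 in the Lgr5 pairs, the widest scatter of any member. Cyp2c40, lower under CR in all 5 isolations, had 0.634 and 1.17 TPM in Hopx CR against 0.869 and 1.99 TPM in Hopx AL, and 0.839, 0.441 and 0.330 TPM in Lgr5 CR against 0.967, 0.567 and 0.991 TPM in Lgr5 AL. These levels are near the limit of the choice, and most of its sequence is shared with other Cyp2c genes.

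Hopx and Lgr5 cells were also compared under each diet, but each isolation held 1 population, so population and isolation cannot be told apart. Under AL, 5 members had higher counts in Hopx cells at an unadjusted p under 0.05 (9.27% of all genes), 0 lower (8.42%), and 0 were called by edgeR (0.0189% of all genes). The 5 were Cyp4a10 (log2 fold change of Hopx over Lgr5 2.86 ± 0.59, adjusted p = 0.0768, edgeR), Cyp2d10 (1.78 ± 0.55, adjusted p = 0.150), Cyp2f2 (3.43 ± 1.20, adjusted p = 0.184), Cyp2c67 and Cyp2c40, all of them among the lower members. Cyp2c67 and Cyp2c40 had met the level through Hopx libraries only, so that the choice favoured a difference, and it is given only as TPM. Cyp2c67 had 0.482 and 0.904 TPM in Hopx AL against 0.150, 0.248 and 0.147 TPM in Lgr5 AL. Of the 28 members that met the level in 2 or more libraries of each population, 3 were higher in Hopx cells at an unadjusted p under 0.05 and 0 lower. Estimates were above 0 for 16 members (52.4% of all genes) and above 1 for 7 (10.1%). As CPM, the Hopx and Lgr5 libraries did not overlap for 8 members that were higher in Hopx cells (18.8%) and for 1 that was lower, Cyp2e1 (15.9%). The count at an unadjusted p under 0.05 was 9 without the first Lgr5 AL library (10.8% of all genes), 2 without the second Hopx AL library (6.5%) and 3 without isolation 4 (5.34%). Without the second Hopx AL library Cyp4a10 was called by edgeR (0.113% of all genes). Without isolation 4, which left a single Hopx AL library, the value for Cyp4a10 was 1.26. Under AL DESeq2 called 3 members (Cyp2d10, Cyp2f2 and Cyp4a10), with 7.38% of all genes called. On log2(TPM + 1) limma called 7, of which 1 was higher and 6 were lower in Hopx cells, with 29.4% of all genes called, so that both shares of members lay near or under that of all genes. The balance of directions thus differed between counts with TMM scaling and the deposited TPM.

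Under CR, 2 members had higher counts in Hopx cells at an unadjusted p under 0.05 (3.31% of all genes), with 0 lower (2.99%). They were Cyp2c70, which makes muricholic acids in mouse liver, with a log2 fold change of Hopx over Lgr5 of 2.55 ± 0.82 (adjusted p = 0.645, edgeR), and Cyp2c67, which had met the level through Hopx CR libraries only. Of the 28 members that met it in 2 or more libraries of each population the count was 1, Cyp2c70. That gene had 4.81 and 1.63 TPM in Hopx CR against 0.20, 1.31 and 0.524 TPM in Lgr5 CR. The Lgr5 CR values rested on 8, 39 and 37 estimated counts, so the size of the fold is poorly fixed. No member was called by edgeR (0.0189% of all genes). DESeq2 called 1, Cyp2c67 (1.18% of all genes), which the choice likewise favoured. Estimates were above 0 for 20 members (50.2%) and above 1 for 3 (5.93%). Libraries did not overlap for 7 members higher in Hopx cells (11.7%) and for 2 lower, Cyp2c55 and Cyp4f14 (11.5%). Cyp2c67 had 1.36 and 1.13 TPM in Hopx CR against 0.358, 0.0730 and 0.0199 TPM in Lgr5 CR. The count at an unadjusted p under 0.05 was 4 without the first Lgr5 CR library (2.36% of all genes), 4 without the second Hopx CR library (2.62%) and 1 without the first Hopx CR library (3.28%). For the 5 most abundant genes, Cyp3a11, Cyp3a13, Cyp4f14, Cyp2b10 and Cyp3a25, the log2 fold change of Hopx over Lgr5 under CR lay between -0.33 and 0.08, with SEs from 0.48 to 0.75, so a moderate difference in either direction would not have been detectable.

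The 41 P450 genes under the level were at low or no counts. Of these, 13 had enough counts to be tested, and Cyp2a22 and Cyp2c54 were at 0 in all 10 libraries. Just inside the level were Cyp2c67, with 1.36 and 1.13 TPM in its 2 highest libraries, and Cyp3a59, with 1.12 and 1.08 TPM. Just outside were Cyp2c44, with 1 library at 1.25 TPM, and Cyp3a44, with a highest value of 0.995 TPM. Cyp4f18, Cyp2j5 and Cyp4f17 also reached the level in 1 library, at 2.83, 1.74 and 1.01 TPM. Through the CR libraries alone Cyp2u1, Cyp2j12 and Cyp2c67 met the level, and through the AL libraries alone Cyp1a1 did, while Cyp2c40 and Cyp2c67 met it only through Hopx and Cyp3a59 and Cyp2j12 only through Lgr5 libraries. Well-known family members among the 41 were Cyp1a2, the main family 1 enzyme of mouse liver, at no more than 0.177 TPM, Cyp1b1 at no more than 0.0117 TPM, and Cyp4a14, usually induced together with Cyp4a10 in mouse liver, at no more than 0.101 TPM.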

How the data were processed

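RNA of sorted intestinal stem cells was sequenced in 10 libraries of 10 mice. Extraction used TRIzol LS and columns, cDNA came from a SMART-Seq v4 low-input kit and libraries from Nextera XT, per the labels' protocols, a procedure without molecular identifiers and without strand. The authors deposited estimated counts and TPM per gene symbol, made with kallisto and edgeR per the submitters' processing notes, which name the build GRCh38, whereas the symbols are those of mouse genes. The transcript annotation and the step to genes were not given in the sources used here. TPM sums over the deposited rows ran from 943114 to 972945 per library.

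Estimated counts were rounded and tested with edgeR 4.0.16 (R 4.3.3): a quasi-likelihood test, TMM scaling, filterByExpr with a minimum count of 10, and 1 mean for each of 4 groups over all 10 libraries. This left 15839 of 30295 rows, over which p-values were adjusted by Benjamini-Hochberg, with a threshold of 0.05. All contrasts shared 1 estimate of spread, with a biological coefficient of variation of 0.389, and libraries of a group correlated at 0.937 to 0.965 over genes. Standard errors cover the spread between animals, and with 2 or 3 animals a group precision is limited by their number more than by depth. DESeq2 1.42.0, limma 3.58.1 on log2(TPM + 1) and log2(TPM + 0.1), other filters, RLE scaling, an isolation block and leaving out libraries were alternatives. Without a Hopx library its group held a single library, and without isolation 4 both Hopx groups did. The spread of such a group then came from the other groups. Leaving out isolation 4, counting unadjusted p-values under every alternative, and counting members that met the TPM level in 2 or more libraries of each compared diet or population, were chosen after seeing the data. The fit was tested on simulated data.

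The animals of an isolation are paired by the batch number in the labels, and their deviations from the group means correlated at 0.0759, 0.165, 0.0195, 0.0252 and 0.0252 in isolations 1 to 5. With 2 libraries a Hopx group the deviations mirror each other, so isolations 4 and 5 give the same value by construction. Symbols matched 95 rows of families 1 to 4 in any form, of which 20, such as pseudogenes and symbols with a trailing letter, did not follow the pattern. Most members are named with TPM in each library. Fold changes are given for members with an unadjusted p under 0.05 and for the 5 highest in mean TPM, and for up to 4 genes of a list with the smallest p. The members and the lists (microsomal partners, heme synthesis, receptors, targets of the aryl hydrocarbon receptor and of Ppar-alpha, and cell type markers) were chosen with earlier results of these data known. Promoters are RefSeq sequences, and shared 31-base stretches were counted in GENCODE M21 transcripts.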

Additional observations from a re-analysis of the deposited data

How the results depend on the processing

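Where edgeR called 0 members, other settings called some, and the cause was not tested. For diet in Hopx cells DESeq2 called 5 (0.924% of all genes). On only the groups compared edgeR called 1, Cyp2b10 (0.0131%). For diet in Lgr5 cells DESeq2 called 8 (2.26%) and no low count filter 6 (0.335%). There limma called 5 on log2(TPM + 1) (0.259%) and 3 on log2(TPM + 0.1) (0.188%). For diet averaged over both, the counts in that order were 13 (4.13%), 7 (0.473%), 9 (0.69%) and 9 (0.565%). For Hopx against Lgr5 under AL they were 3 (7.38%), 1 (0.784%), 7 (29.4%) and 8 (30.5%). Under AL limma without a filter called 1, Cyp4f13 (9.53%), and under CR DESeq2 called 1 (1.18%). Over all genes the share called under these settings ran from 0.0131% to 30.5%, the highest being limma for Hopx against Lgr5 under AL. Leaving out any 1 library gave 0 members for diet in Hopx cells. Leaving out 1 library gave 0 to 6 members for diet in Lgr5 cells, 0 to 15 for the average and 0 to 1 under AL, the upper ends being without the first Lgr5 AL library and, under AL, without the second Hopx AL library. With isolation as a replicate block 0 members were called in each diet contrast, as without it. At an unadjusted p under 0.05 by edgeR there were then 14 members in Hopx cells, 18 in Lgr5 cells and 23 averaged. Without the block these numbers were 13, 13 and 17. The share of all genes at that level was not counted under the block, so its larger numbers have no background to be read against. Of 56 estimates of named genes none changed sign under any alternative. The difference of diet effects had 0 members called in all settings run. The summed TPM without Cyp3a11 was 1672 in Hopx CR, 547.6 in Hopx AL, 2138 in Lgr5 CR and 1177 in Lgr5 AL. Depth bears most on genes under about 1 TPM, where estimated counts were often below 100. Reads divided among near-identical copies limit Cyp2c40, Cyp2c67, Cyp2c68, Cyp2d10, Cyp4a10, Cyp4a32, Cyp3a25 and Cyp3a59, and with 2 Hopx animals a diet the spread of Hopx cells is borrowed from all groups.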

Other observations

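P450 genes outside families 1 to 4 that work on sterols had diet estimates of either sign. Cyp51, the lanosterol demethylase of cholesterol synthesis, had 13.7 and 22.3 TPM in Hopx CR against 26.2 and 26.7 TPM in Hopx AL, and 14.7, 15.8 and 11.8 TPM in Lgr5 CR against 36.5, 25.6 and 42.4 TPM in Lgr5 AL. All CR libraries of a population lay below its AL libraries, with log2 fold changes of -0.86 ± 0.29 in Hopx cells and -1.08 ± 0.24 in Lgr5 cells (adjusted p = 0.503 and 0.189, edgeR), and neither was called. Cyp27a1, the mitochondrial sterol hydroxylase of bile acid synthesis, had 18.3 and 21.4 TPM in Hopx CR against 11.4 and 14.7 TPM in Hopx AL, and 32.7, 21.7 and 25.7 TPM in Lgr5 CR against 40.2, 21.8 and 31.5 TPM in Lgr5 AL, and its Lgr5 groups overlapped. Its log2 fold change was 0.33 ± 0.32 in Hopx cells and -0.04 ± 0.27 in Lgr5 cells, and that of Cyp39a1, an oxysterol hydroxylase, was 0.08 ± 0.43 in Hopx cells and -0.01 ± 0.35 in Lgr5 cells. Cyp11a1, which starts steroid hormone synthesis, had 0.659 and 0.690 TPM in Hopx CR against 0.383 and 0.390 TPM in Hopx AL, and 0.232, 0.254 and 0.732 TPM in Lgr5 CR against 1.91, 1.25 and 3.26 TPM in Lgr5 AL. Its Lgr5 groups did not overlap, with a log2 fold change of -2.07 ± 0.66 (adjusted p = 0.336, edgeR), and in Hopx cells the estimate was 0.52 ± 0.78 (adjusted p = 0.878, edgeR). The difference between these 2 diet effects, Hopx minus Lgr5, was 2.58 ± 1.03 (unadjusted p = 0.0308, adjusted p above 0.999 by edgeR). These genes were chosen after their values were seen.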
